A study of Mus musculus with 2 samples.

Results

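The loci of Mitf and Pax3, which encode regulators of the melanocyte lineage, were described from the deposited EP300 peaks and H3K4me1 regions that overlap 2 windows of the mouse genome (mm9). The Mitf window is chromosome 6, 97700000 to 98030000 (330 kb), and the Pax3 window is chromosome 1, 78040000 to 78260000 (220 kb). Members were found by coordinates alone, since the lists carry no gene names. The windows hold 103 of the 78725 listed intervals, of which 44 lie in the Mitf window and 59 in the Pax3 window. Of these, 14 are among the 8451 EP300 peaks of replicate 1, 15 among the 10351 peaks of replicate 2 and 74 among the 59923 H3K4me1 regions.

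The study mapped EP300 and H3K4me1 by chromatin immunoprecipitation and sequencing (ChIP-seq) in melan-a, an established line of immortalized mouse melanocytes from the strain given as C57BL/6 Ink4a -/-. The cells were untreated and all data come from this single line, so the Ink4a deletion is shared by everything compared here. EP300 was pulled down with an anti-p300 antibody and deposited as 2 replicate peak lists, and H3K4me1 with an anti-H3K4me1 antibody and deposited as 1 list for 2 replicates. Nothing states that the replicates were separate cultures, so their spread may be technical. The melanocyte identity of the line could not be checked against marker genes, because no expression was measured. With 1 sample per antibody there is no test across samples, and every comparison below is a description of these lists.

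MITF is a basic helix-loop-helix leucine zipper factor that activates pigment enzyme genes and is needed for melanocyte survival. PAX3 is a paired-domain and homeodomain factor of the neural crest that, together with SOX10, activates Mitf in the melanocyte lineage. EP300 is a histone acetyltransferase recruited to enhancers and promoters by such factors. H3K4me1, monomethylated lysine 4 of histone H3, marks enhancers and usually flanks the site where factors bind rather than covering it. In RefSeq (GRCm38), the closest protein-coding neighbours of Mitf are Frmd4b and Gm765, and those of Pax3 are Epha4 and Gm2102. An mm9 annotation was not used here, so no peak is called exonic, intronic or promoter-proximal.

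Mitf has several alternative first exons, and melanocytes use the last of them, that of the MITF-M form. The RefSeq table of start windows, which run from 250 bases before to 50 after a start, matched 1 of the 2 genes, Mitf, with 3 windows. The last of these along the gene is shown because its promoter is the one through which PAX3, SOX10 and CREB are known to act on Mitf. It is read 5′ to 3′ on the plus strand of chromosome 6, and its position was not carried over to mm9 or set against the peaks.

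Mitf, last start window: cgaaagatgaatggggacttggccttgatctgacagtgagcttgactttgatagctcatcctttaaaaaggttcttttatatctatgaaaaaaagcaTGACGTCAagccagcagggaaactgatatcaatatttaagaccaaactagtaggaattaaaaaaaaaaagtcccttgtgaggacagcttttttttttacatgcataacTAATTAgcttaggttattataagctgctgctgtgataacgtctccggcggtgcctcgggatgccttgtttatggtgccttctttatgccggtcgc

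Capitals mark the matches found among the motifs searched on both strands: TGACGTCA, the cyclic AMP response element, at base 98 of the window, and TAATTA, a homeodomain core, at base 206. TGACGTCA occurs in 1.79% and TAATTA in 5.29% of all 32851 RefSeq start windows of this length. The other motifs searched have no match in these letters: CACGTG for the E-box, TCATGTG for the core of the M-box, ACAAAG or alternatively ACAATG for SOX factors, GTCACG for a paired domain, TGANTCA for AP-1 and finally GCCNNNGGC for TFAP2. The matches of TGACGTCA and TAATTA do not overlap. A match describes letters only and shows no binding. Likewise, a missing match does not show a missing site, since only these strings were searched. Of the other Mitf windows, the second along the gene has GCCNNNGGC at base 277, found in 16.6% of all start windows. The first has no match.

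EP300 was found in both lists at 5 loci in each window, which gives 1.52 loci per 100 kb around Mitf and 2.27 around Pax3. A shared locus is the merged interval of overlapping peaks with at least 1 peak from each replicate, numbered here from the lower coordinate upward. In the Mitf window all 5 replicate 2 peaks and 5 of the 9 replicate 1 peaks were shared. In the Pax3 window it was the other way round, with all 5 replicate 1 peaks and 5 of the 10 replicate 2 peaks shared. Over the whole lists 42.9% of replicate 1 peaks and 34.8% of replicate 2 peaks were shared. Because the extra peaks came from a different replicate in each window, the order of the windows by EP300 peaks depends on the list. Replicate 1 alone had 2.73 peaks per 100 kb around Mitf and 2.27 around Pax3, whereas replicate 2 alone had 1.52 and 4.55. The windows thus differed in opposite directions in the 2 replicates, and no order of the windows by EP300 density is read from these lists.

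**Figure D1:**
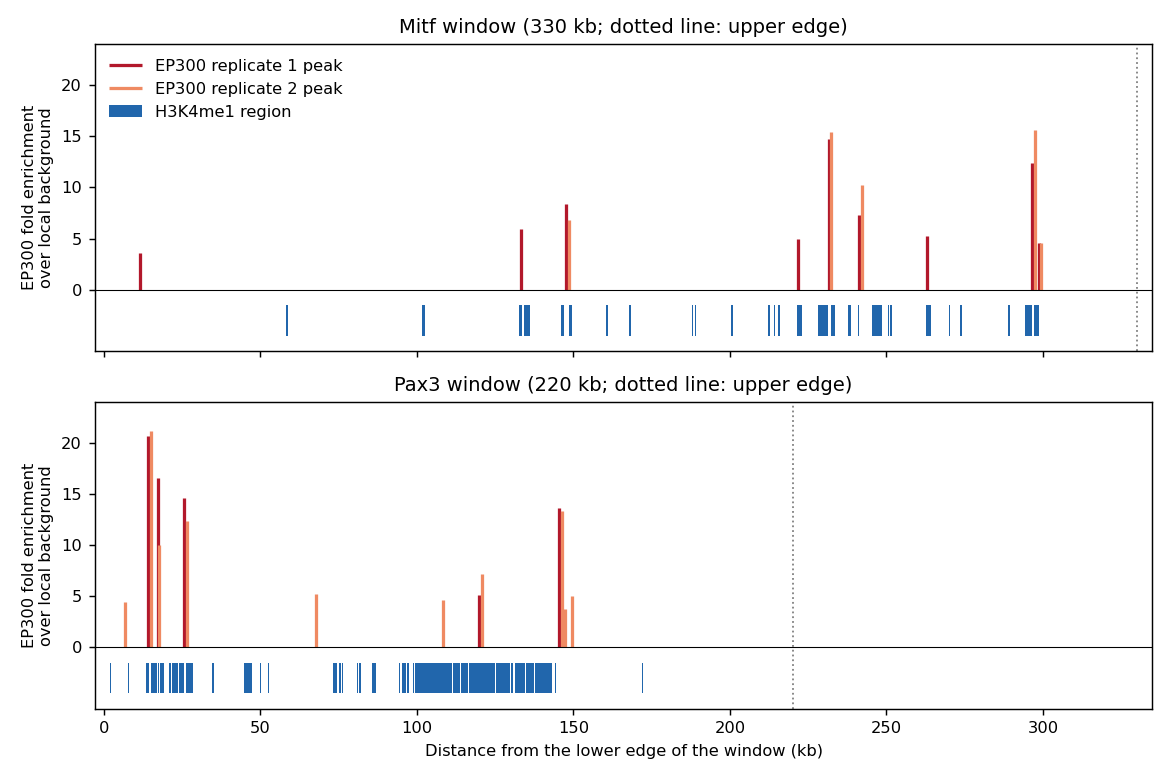
EP300 peaks (red, replicate 1; orange, replicate 2; height, fold enrichment over local background; set side by side where both are present) and H3K4me1 regions (blue, widths to scale) along the Mitf and Pax3 windows, by distance from the lower edge in kb. EP300 loci lie mainly in the upper part of the Mitf window, and in the Pax3 window a group of 3 loci near the lower edge is separate from the broad block of H3K4me1.

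Mitf locus 2, at chromosome 6, 97930570 to 97933744, had the most tags and the highest significance of its window in both replicates. It held 351 tags in replicate 1 and 438 in replicate 2, where a tag is a sequenced read after the filtering of duplicates. Its summit was enriched 14.72-fold and 15.38-fold over the background that the peak caller took from the control library. By significance it was peak 22 of the replicate 1 list and peak 32 of the replicate 2 list, and by mean percentile it ranked 17 among 3573 shared loci. The replicates placed the summit 35 bp apart. This 1 locus held 30.4% of all tags in the Mitf window's peaks in replicate 1 (exact binomial 95% interval 27.7% to 33.1%) and 42.6% in replicate 2 (39.6% to 45.7%). These intervals cover counting error only. The totals also differ in kind, since the 1156 tags of replicate 1 include 4 single-list peaks and the 1027 of replicate 2 include none. In shared peaks alone the totals were 873 and 1027 tags, so the 2 shares are not directly comparable.

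Mitf locus 4, at 97995674 to 97997667, came next in the window by tags, with 195 and 207, and was 12.39-fold and 15.58-fold enriched, in replicate 2 slightly more than locus 2. Only 749 bp above it lay Mitf locus 5, at 97998417 to 97999829, the lowest of all 10 loci in fold enrichment and mean rank, with 73 and 76 tags and 4.55-fold and 4.57-fold enrichment. The pair thus combines a locus of rank 162 with one of rank 3135 among the 3573. Mitf locus 3, at 97940751 to 97942568, lay 7006 bp above locus 2 and had 123 and 139 tags, with 7.27-fold and 10.22-fold enrichment. The lowest in position, Mitf locus 1 at 97846964 to 97848874, stood 81695 bp from its neighbour and had 131 and 167 tags, with 8.39-fold and 6.78-fold enrichment. No shared locus lay in the lower 147 kb of the window.

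Around Pax3 the EP300 signal was concentrated in 3 loci that together span 13.5 kb near the lower edge of the window. Pax3 locus 1, at chromosome 1, 78053440 to 78055407, had the highest fold enrichment of the 10 loci, 20.6-fold in replicate 1 and 21.13-fold in replicate 2, from 212 and 262 tags. Pax3 locus 2 began 469 bp further, at 78055877 to 78058389, with 239 and 259 tags. Its enrichment was 16.55-fold in replicate 1 but 9.97-fold in replicate 2, and the summits lay 535 bp apart, more than at any other of the 10 loci. Pax3 locus 3, at 78064793 to 78066969, had 188 and 194 tags, with 14.62-fold and 12.34-fold enrichment. They ranked 57, 52 and 150 among the 3573 shared loci and held 77.5% (interval 74.5% to 80.4%) of the tags in the window's peaks in replicate 1 and 68.9% (66.0% to 71.8%) in replicate 2. The replicate 2 total of 1037 tags includes 5 single-list peaks, and the replicate 1 total of 824 includes none. In shared peaks alone the totals were 824 and 847. Such shares are not particular to Pax3, as the 3 best-ranked Mitf loci held 57.9% and 76.3% of the tags in their window's peaks.

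The remaining Pax3 loci differed from each other in opposite ways. Pax3 locus 4, at 78159253 to 78160888, lay 92283 bp above locus 3 and was weak, with 92 and 59 tags and 5.09-fold and 7.19-fold enrichment. Its summits were 4 bp apart in the replicates. Pax3 locus 5, at 78185432 to 78186525, had a like number of tags, 93 and 73, but 13.6-fold and 13.32-fold enrichment, on a background of 1.05 and 1.13 times the genome-wide level against 1.91 and 1.35 times at locus 4. It ranked 629 among the shared loci, and locus 4 ranked 2487.

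In order of the geometric mean of the replicates, fold enrichment ran from 20.9 at Pax3 locus 1 through 15.0 at Mitf locus 2, 13.9 at Mitf locus 4, 13.5 at Pax3 locus 5, 13.4 at Pax3 locus 3 and 12.8 at Pax3 locus 2. Then followed 8.62 at Mitf locus 3, 7.54 at Mitf locus 1, 6.05 at Pax3 locus 4 and 4.56 at Mitf locus 5. The yardstick for error is the log2 ratio of replicate 1 to replicate 2 over all 3573 shared loci, which had an SD of 0.53. For a difference between 2 loci, each the mean of 2 replicates, this corresponds to an SD of 0.38, if the replicates are independent and equally noisy. Of the steps between neighbours in this order, 3 exceeded 0.38 on the log2 scale. They were those from Pax3 locus 1 to Mitf locus 2 (0.47), from Pax3 locus 2 to Mitf locus 3 (0.57) and from Pax3 locus 4 to Mitf locus 5 (0.41). All 3 were under 2 such SDs. The 5 loci from Mitf locus 2 to Pax3 locus 2 were separated by steps of at most 0.11. The 10 loci themselves differed between replicates by -0.50 (Pax3 locus 4) to 0.73 (Pax3 locus 2) in log2 fold enrichment. Of the 10, only Pax3 locus 2 lay further than 0.53 from 0.

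**Figure D2:**
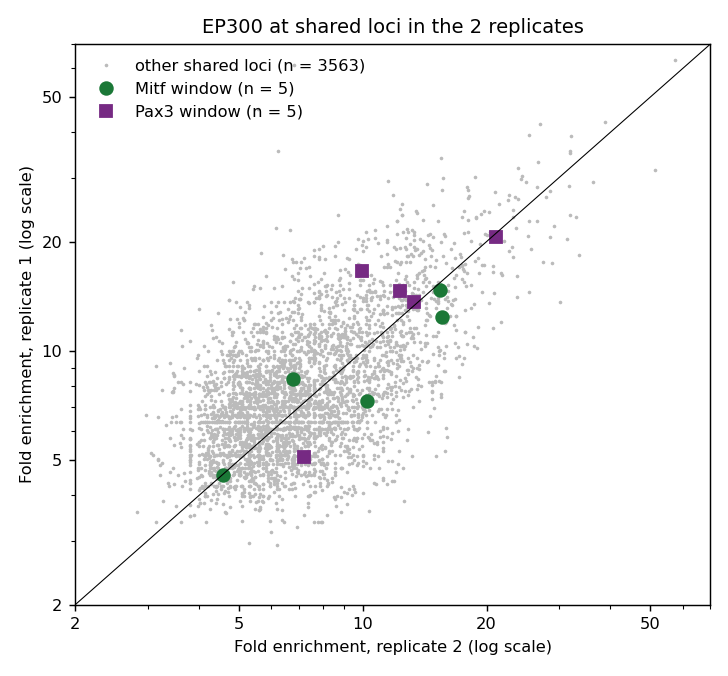
EP300 fold enrichment in replicate 1 against replicate 2, on log axes, for the 5 shared loci of the Mitf window (circles), the 5 of the Pax3 window (squares) and the other 3563 shared loci (grey), with the line of equality. The 10 loci reach from 4.55-fold to 21.13-fold and lie among the grey points, and the square furthest above the line is Pax3 locus 2.

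As a group the shared peaks of both windows carried more tags than shared peaks overall. The median was 131 tags in replicate 1 and 167 in replicate 2 around Mitf, and 188 and 194 around Pax3, against 64 and 72 over all shared peaks. Tags were not scaled to length. The Mitf loci were 1413 to 3175 bp long and the Pax3 loci 1094 to 2513 bp, against a median of 1278 bp over all shared loci. The part of length in the tag counts was not tested. Median fold enrichment was 8.39 and 10.2 around Mitf and 14.6 and 12.3 around Pax3, against 7.29 and 6.82 overall. As a ratio to the full lists, the gap was thus narrower in fold enrichment than in tags for both windows.

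Beside this stands the background that the peak caller set against each peak, worked out from its tags and significance and given relative to the genome-wide level. In replicate 1 it ranged from 1.48 to 2.67 times that level at the 9 Mitf peaks, with a median of 1.78. In replicate 2 it ranged from 1.78 to 2.79 times at the 5 Mitf peaks, with a median of 1.94. The medians over all peaks were 1.05 and 1.08, and those over peaks on chromosome 6 were 1.24 and 1.29. Every Mitf peak of either list thus lay above the median of its chromosome. At Pax3 the background was 1.05 to 1.91 times the genome-wide level in replicate 1 and 0.973 to 1.86 in replicate 2, with medians of 1.29 and 1.24. For 3 of the 29 peaks, among them Mitf locus 2 in replicate 2 and the Pax3 peak at 0.973, the summit height this background implies was not whole, so their values are less certain. The tags of the Mitf peaks thus stand against a background above the median of all peaks, and the part of this in the tag counts was not tested. Mitf locus 2 had more tags than Pax3 locus 1 in both replicates but a lower fold enrichment, with a background of 2.29 and 2.31 against 1.81 and 1.86.

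**Figure D3:**
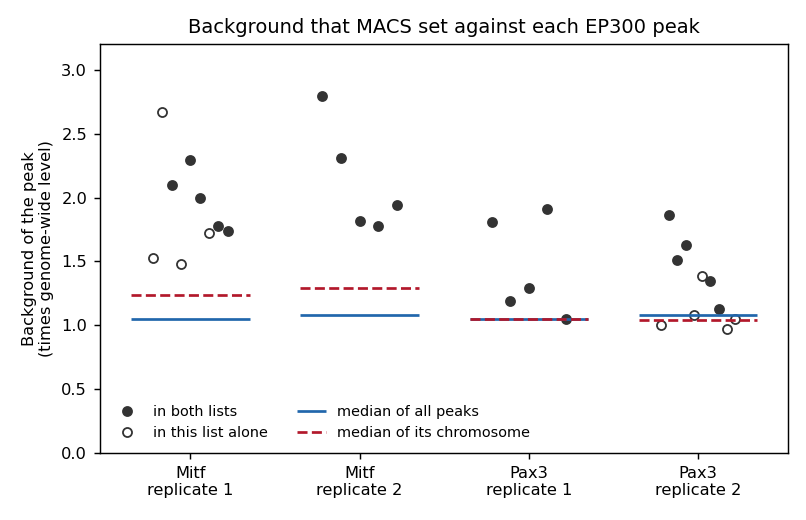
Background of each EP300 peak in times the genome-wide level, by window and replicate, for peaks in both lists (filled) and in 1 list (open), with the median of all peaks (blue) and of peaks on the same chromosome (dashed red). The Mitf points, at 1.48 to 2.79, lie above both lines in each replicate, while the Pax3 points, at 0.973 to 1.91, start near the lines and extend upward.

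H3K4me1 covered far more of the Pax3 window than of the Mitf window. It covered 61.9 kb around Pax3, or 28.1 kb per 100 kb, and 27.6 kb around Mitf, or 8.38 kb per 100 kb, a ratio of 3.36. There were 44 regions in the Pax3 window and 30 in the Mitf window, which is 20.0 and 9.09 per 100 kb. The median region was not wider around Pax3, at 575 bp against 675 bp, and 500 bp over the whole list. Besides the number of regions per 100 kb, the number of wide regions differed: 9 regions of at least 2 kb held 38.0 kb around Pax3, and 3 such regions held 8.35 kb around Mitf. Such widths were uncommon in the whole list of 59923 regions. By width, a region of 2050 bp stood at place 1678 and one of 1950 bp at place 1958. Regions of both windows had median percentile ranks close to each other, 53.9 at Pax3 and 56.6 at Mitf. Of the regions, 14 of 44 at Pax3 and 10 of 30 at Mitf belonged to the top 20% of the list by rank. How deeply H3K4me1 was sequenced is unknown and there is 1 list, so none of these values has a replicate error.

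For scale, chromosomes 1 to 19 and X were divided into consecutive stretches of the length of each window. Stretches of 330 kb had a median of 0.95 kb of H3K4me1, and 235 of 7982 (2.94%) held at least as much as the Mitf window. Stretches of 220 kb had a median of 0.4 kb, and 1 of 11976 held at least as much as the Pax3 window. Set only beside stretches that also had exactly 5 shared EP300 loci, Mitf was near the middle: 20 of 42 had at least as much H3K4me1, with a median of 26.7 kb. None of the 28 stretches of 220 kb with 5 loci had as much as the Pax3 window, their median being 24.1 kb and their highest value 55.5 kb. The windows were placed on genes of interest and the stretches on a fixed grid, so these ranks describe the windows and are no test. The grid also includes the sequence of the windows. The 330 kb stretch that holds all Mitf loci and regions is itself counted among the 235, the 42 and the 20. By contrast, a boundary of the 220 kb grid cuts the Pax3 window. Pax3 loci 1 to 3 fall in 1 stretch, and loci 4 and 5 with most of the window's H3K4me1 in the next. Neither stretch has 5 shared loci, so neither is among the 28.

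**Figure D4:**
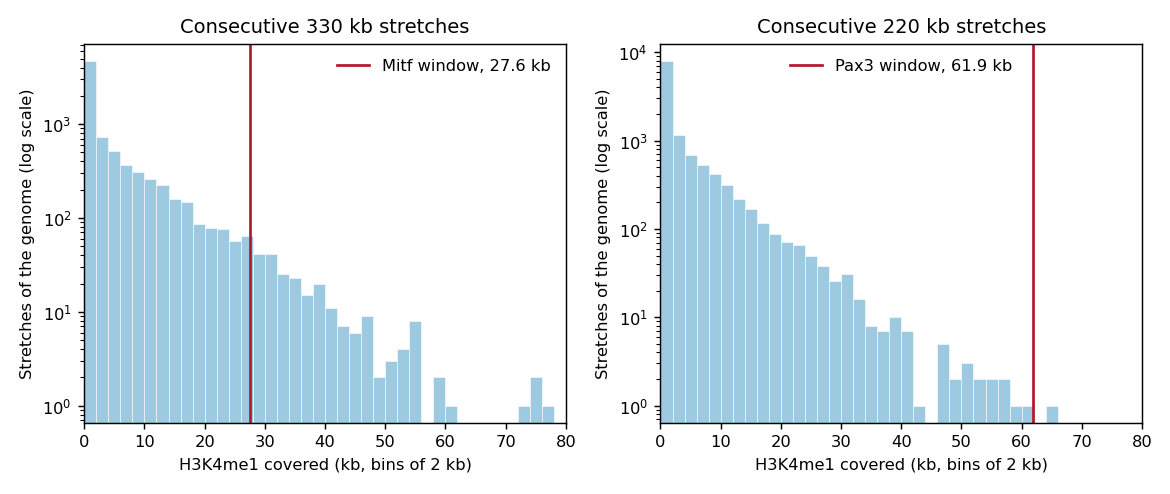
Number of consecutive genome stretches (log axis) by the kb of H3K4me1 they hold, in bins of 2 kb, for stretches of 330 kb (left, Mitf window as red line at 27.6 kb) and 220 kb (right, Pax3 window at 61.9 kb). The Mitf line falls in the upper tail and the Pax3 line close to the end of the distribution.

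The H3K4me1 around Pax3 was mostly 1 block. Joining regions no more than 1000 bp apart gave a stretch at chromosome 1, 78138650 to 78182999, of 44.35 kb, made of 15 regions that cover 90.8% of it. It was the longest of the 40698 stretches formed in this way in the genome, followed by one of 42.3 kb on chromosome 7, and the median stretch was 0.65 kb long. The block held 65.1% of the H3K4me1 of the Pax3 window. The widest regions of the window lay within it, namely 78143000 to 78151099 (8100 bp), 78156650 to 78164549 (7900 bp) and 78177650 to 78182749 (5100 bp). By the authors' rank the second of these was region 85 of 59923, the best in either window.

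EP300 and H3K4me1 were distributed differently over the Pax3 window. The 44.35 kb block held only Pax3 locus 4 among the shared loci. Its peaks, which in replicate 2 include 1 found in that list alone, held 11.2% (interval 9.1% to 13.5%) of the EP300 tags in peaks of the window in replicate 1 and 10.7% (8.89% to 12.7%) in replicate 2. Loci 1 to 3, with 77.5% and 68.9% of the tags, overlapped 2 shorter stretches, of 5.6 kb at 78053450 to 78059049 and of 7.45 kb at 78060900 to 78068349. Above 78184299 the Pax3 window had 2 short regions, of 300 bp and 350 bp.

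No such block was found around Mitf. The longest stretch, 97928200 to 97933499, was 5.3 kb long and surrounded Mitf locus 2. The next, 97994350 to 97998699, was 4.35 kb long and reached from Mitf locus 4 to locus 5. The 3 widest regions were 97928200 to 97931399 (3200 bp), 97945500 to 97948449 (2950 bp) and 97994350 to 97996549 (2200 bp). The first and the last of them overlapped Mitf loci 2 and 4, and the second overlapped no EP300 peak of either list. In the lower 120 kb of the window only 2 regions were found, of 700 bp and 900 bp. Regions that overlap a shared EP300 locus, 6 of 30 around Mitf and 7 of 44 around Pax3, held 33.6% and 25.8% of the H3K4me1 length. Over the whole list 9.03% of regions overlapped a shared locus and held 14.9% of the length.

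H3K4me1 lay within 1000 bp of the edges of all 5 Mitf loci and of 4 of the 5 Pax3 loci, against 96.1% of all shared loci. At the 5 best-ranked of the 10 loci it flanked the EP300 centre on both sides. A centre is the midpoint of the overlap of the replicate peaks, and it lies in a gap when no region covers it and regions begin or end within 1000 bp both below and above it. Mitf loci 2 and 4 lay in gaps of 1000 bp and 650 bp, and Pax3 loci 1, 2 and 3 in gaps of 550 bp, 450 bp and 750 bp. With the peak caller's summits as centres, or with the upper 50% of H3K4me1 regions, the Pax3 count was 2 instead of 3. The Mitf count stayed at 2 in both settings. Over all shared loci 62.3% of centres lay in a gap, with a median gap of 650 bp and quartiles at 500 bp and 850 bp. The counts here, 2 of 5 around Mitf (exact interval 5.27% to 85.3%) and 3 of 5 around Pax3 (14.7% to 94.7%), cannot be told from that share or from each other at this number of loci. These intervals treat the loci as independent, which they are not. Pax3 loci 1 and 2 share a flanking region, as do Mitf loci 4 and 5.

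At the flanks of Mitf locus 2 stood a region of 3200 bp, ranked 2926 of 59923, and one of 1100 bp, ranked 1562. Those of Mitf locus 4 were 2200 bp wide (rank 1555) and 1500 bp wide (rank 5684). Pax3 locus 1 lay between regions of 1000 bp (rank 30709) and 1900 bp (rank 3420), so its flanks were unequal in rank. Pax3 locus 2 shared the latter region as its lower flank and had one of 300 bp (rank 47904) above. Beyond it, a region of 1300 bp (rank 9828) at 78057750 to 78059049 also overlapped this locus. The replicate 1 summit of the locus, at 78057642, lay inside the 300 bp region. Pax3 locus 3 had flanks of 1500 bp (rank 6796) and 2050 bp (rank 672).

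The other Mitf loci were marked on a single side of the centre, as were 19% of all shared loci. At Mitf locus 1 a region of 900 bp began 512 bp above the centre, and the one below ended 1189 bp from it, past the 1000 bp limit. Mitf locus 3 had a region of 400 bp, ranked 35547, ending 452 bp below the centre, and none for 3849 bp above. At Mitf locus 5 the region below ended 416 bp from the centre and no other followed for 76785 bp.

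Pax3 loci 4 and 5 were the extremes of H3K4me1 among the 10. Pax3 locus 4 was centred inside the region of 7900 bp, a state found at 12.2% of shared loci, and the whole 5 kb around its centre was covered. Within 5 kb around Pax3 locus 5 only 0.25 kb was covered, against a median of 1.8 kb over all shared loci and a lower quartile of 1.1 kb. The nearest region ended 1133 bp from its edge, and above it none followed for 8530 bp from the centre. The more enriched of these 2 loci therefore had the less H3K4me1. The other loci did not share this order. In the same 5 kb, the 5 best-ranked loci had 2.9 to 3.7 kb covered. The less enriched Mitf loci 1, 3 and 5 had 0.4 to 1.8 kb.

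**Figure D5:**
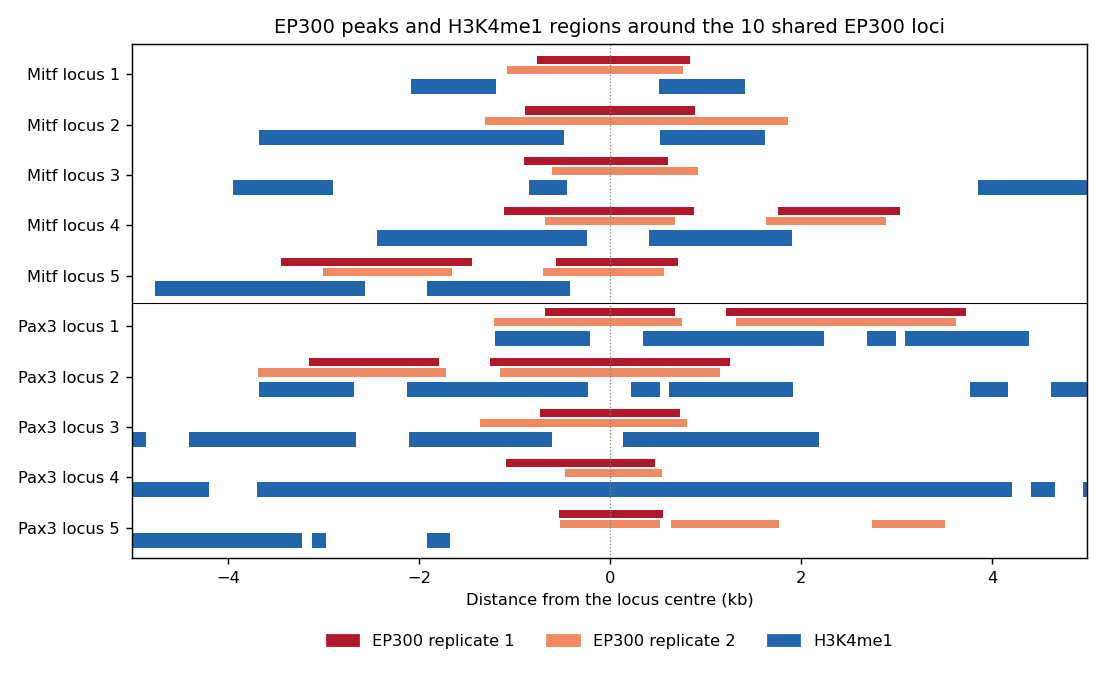
EP300 peaks of replicate 1 (red) and replicate 2 (orange) and H3K4me1 regions (blue), to scale, in the 5 kb on each side of the centre of each of the 10 shared loci. H3K4me1 is interrupted at the centre of Mitf loci 2 and 4 and Pax3 loci 1 to 3, continuous across Pax3 locus 4 and more than 1000 bp away from Pax3 locus 5.

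Peaks of a single list numbered 4 around Mitf, all from replicate 1, and 5 around Pax3, all from replicate 2. Around Mitf they were 3.58-fold to 5.91-fold enriched. The highest in tags, fold enrichment and significance, at 97833161 to 97834241, had 109 tags, 5.91-fold enrichment and a false discovery rate of 0.22%, and ranked 1781 of 8451 by significance, above the shared locus 5. Its centre lay between 2 H3K4me1 regions, 302 bp and 649 bp away, and the nearest replicate 2 peak was 12723 bp off. The peaks at 97921808 to 97922819 (48 tags) and 97963033 to 97964007 (53 tags) had their centres inside H3K4me1 regions. The fourth, at 97710921 to 97712324 (73 tags), lay 45676 bp from the nearest region. In all, 3 of the 4 had H3K4me1 within 1000 bp, against 46.6% of all peaks found in replicate 1 alone.

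Around Pax3 the single-list peaks were 3.73-fold to 5.17-fold enriched, with 30 to 52 tags. The one with the most tags and the highest significance, at 78147238 to 78148264, had 52 tags and 4.66-fold enrichment and lay inside the 8100 bp region, the widest of the window. Another, at 78045936 to 78046703, lay 947 bp from a region, so that 2 of the 5 had H3K4me1 within 1000 bp, against 46.1% of all peaks found in replicate 2 alone. The peaks at 78186609 to 78187738 and 78188718 to 78189479 followed Pax3 locus 5, the first of them 84 bp from its replicate 1 peak. With locus 5 they form a row of 3 replicate 2 peaks that has 1 counterpart in replicate 1. The last, at 78106913 to 78107535, had 30 tags and, at 5.17-fold, the highest enrichment of the 5, and lay 5615 bp from the nearest region. Absence from a list means only that the caller's threshold was not reached.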

How the data were processed

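EP300 peaks were called by the authors with MACS 1.4.1 (20110627), per the file headers, for each replicate against its own control, at a p-value threshold of 1e-05 and with at most 2 duplicate tags per position. Replicate 1 had 31439027 and replicate 2 had 32355042 filtered ChIP tags. Per the file headers, each peak has a tag count, a significance score of 10 times the -log10 of a Poisson p, a false discovery rate in percent and a fold enrichment, which is a ratio of the summit to the background nearby. The H3K4me1 list deposited by the authors gives a rank, a score, a maximum log2 fold change, a -log10 p that stops at 100 and a false discovery rate, taken here as a q-value. Neither its caller nor its depth is stated in the labels or the header. The build is mm9, per the submitters' processing notes.

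Overlaps (at least 1 bp), covered length, gaps and stretches were computed in Python 3.11.15 with pandas 2.3.3, numpy 2.4.6 and scipy 1.17.1. Covered length, gap calls, the merging of overlapping peaks and the peak background were tested on simulated data. Stretches and distances from peak edges were not. A peak's background solves the Poisson tail for its mean over the peak or 400 bp, whichever is longer, divided by filtered tags over an effective genome of 1.91e+09 bp. The summit height this implies was whole to within 0.1 tags for 96.9% of 8446 and 96.0% of 10350 peaks. Within the windows it was whole for 26 of 29 peaks. Every shared locus is described, with the single-list peak of highest significance and the 3 widest H3K4me1 regions of each window. The other single-list peaks and flanking regions were named after their values were seen. The windows and lists were chosen with earlier results of these data known. Alternatives were other overlaps, thresholds, flank distances, centres and window edges, and leaving out a replicate. Sequences under the peaks were not used here. RefSeq names and sequence are from GRCm38.p6.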

Additional observations from a re-analysis of the deposited data

How the results depend on the processing

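Of 46 alternatives, 25 left a value the same or a count within 1.5 times. An EP300 replicate was left out, with all peaks of the other list in place of shared loci. Without replicate 1 there were 5 peaks around Mitf and 10 around Pax3. Without replicate 2 there were 9 around Mitf and 5 around Pax3. The ratio of loci per 100 kb, Mitf over Pax3, was 0.667, went from 0.333 without replicate 1 to 1.2 without replicate 2, where it reversed, and was 0.533 in the upper 50% of each list. Widening both windows by 50 kb on each side gave a ratio of 0.62, and narrowing them gave 0.783, with 3 Mitf and 2 Pax3 loci left, since Pax3 loci 1 to 3 lie near the edge. H3K4me1 covered 27.9 kb (widened), 23.5 kb (narrowed) and 21.3 kb (upper 50% of regions) around Mitf, and 69.5, 47.7 and 54.5 kb around Pax3. The ratio of H3K4me1 per 100 kb, Pax3 over Mitf, was 3.35, 3.89 and 3.84 in these settings. With flanks within 500 bp, 1 Mitf locus instead of 2 and 2 Pax3 loci instead of 3 had the centre in a gap. Flanks within 2000 bp gave 3 in each window. The longest Pax3 stretch was chosen after the data were seen. It was the same with regions joined within 500 bp, 50.1 kb with 2000 bp and 31.2 kb with the upper 50% of regions, and the longest in the genome in each. No paired analysis was possible because the labels number no replicates across the antibodies and no result comes from a test. The cause of these shifts was not tested beyond the construction of each setting. Few loci per window and the unknown H3K4me1 depth limit every comparison.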
